A study of Mus musculus with 6 samples.

Results

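NF-κB is a family of transcription factors that switches on inflammatory and survival genes, and a set of 10 of its genes was followed here in hepatocytes loaded with a fatty acid. The set held 4 subunits of the factor (*Nfkb1*, *Nfkb2*, *Rela* and *Relb*) and 2 genes of the IκB family (*Nfkbia* and *Nfkbiz*). It also held 3 feedback regulators (*Tnfaip3*, *Birc2* and *Birc3*) and the adhesion molecule *Icam1*. Members were found by gene name, and all 10 were among the 57180 genes of the deposited table and among the 14151 genes that passed the filter on low counts. They were picked for their role in the pathway, with earlier results of these data known.

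The study compared primary hepatocytes of male mice on a C57BL/6 background, aged 8 to 10 weeks by the study's reporting summary, in 2 groups of 3 libraries. LOXP cells came from STING floxed mice. The cells labelled KO came from STING liver-specific knockout mice, bred from the floxed line and Albumin-Cre mice, whose recombinase is made in hepatocytes. STING is an adaptor that acts below the DNA sensor cGAS and signals through the kinases TBK1 and IKKε to interferon genes and to NF-κB, so the comparison asks how the pathway's genes stood without it. Both groups had received 0.1 mM palmitate (PA), a saturated fatty acid, for 24 h, and there was no library without PA. By the study's methods, its hepatocytes were plated in a medium with 0.1 µM dexamethasone, a glucocorticoid. Those methods do not name the medium used during PA. Dexamethasone itself changes the levels of many NF-κB targets, and all 6 libraries shared that plating medium. Whether the LOXP mice carried Albumin-Cre and whether each library came from a mouse of its own are not given in the sources used here, so p-values measure the spread between these libraries, which may be technical.

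Counted reads ran from 14726983 to 18536985 per library, with 3.86% to 4.65% of them from mitochondrial genes. The first principal component held 50.5% of the variance and separated the groups. The second held 15.5%, with LOXP1 at one end and LOXP2 at the other. *Sting1*, the targeted gene, had 19, 16 and 23 counts in LOXP1 to LOXP3 and 24, 23 and 15 in KO1 to KO3, and the groups overlapped (log2 fold change -0.08, 95% interval -0.76 to 0.60, edgeR quasi-likelihood adjusted p = 0.883). The counts cover the whole gene and cannot tell deleted exons from the rest, so these counts did not check the labels, and the study's RT-PCR of the gene is not analysed here. Directions below are those of the libraries labelled KO. Hepatocyte markers led the libraries, with a summed level of 10130 to 10500 FPKM (fragments scaled to gene length and to the library's total) in LOXP and 8765 to 8939 in KO, the most abundant being *Alb* and *Apoa1*.

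As background, NF-κB waits in the cytoplasm bound to inhibitors. In the canonical arm, receptors for TNF, IL-1 or microbial products activate the IKK kinases, IκBα (*Nfkbia*) is degraded, and dimers of RelA (*Rela*) and p50 (*Nfkb1*) enter the nucleus. In the non-canonical arm, p100 (*Nfkb2*) is cut to p52, which pairs with RelB (*Relb*). The factor then raises regulators of its own, among them *Nfkbia* and *Nfkbiz*, which encodes the nuclear regulator IκBζ. Others are *Tnfaip3*, which encodes the ubiquitin-editing enzyme A20, and *Birc2* and *Birc3*, which encode the ubiquitin ligases cIAP1 and cIAP2. *Icam1* encodes a surface protein that binds leukocytes and is a standard readout of the pathway. In hepatocytes the pathway drives acute phase proteins and protects the cell from TNF-induced death.

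The factor binds the κB consensus, a 10-base motif. RefSeq promoter windows of 300 bases (250 before and 50 after an annotated start, build GRCm38.p6) were searched for it on both strands, and a stretch that matched on both was counted as 1. Of 32851 windows, 8.46% held a match. The table had windows for 7 members, and *Nfkb1*, *Relb* and *Nfkbiz* were not in it. Matches lay in windows of *Nfkb2*, *Nfkbia* and *Tnfaip3*, and the windows of *Rela*, *Birc2*, *Birc3* and *Icam1* held none. The 150 bases before the start are shown for the 3 genes with a match, of which *Nfkb2* and *Tnfaip3* were among the members lower in KO and *Nfkbia* was not. The matching letters are in capitals, and each line reads 5′ to 3′ along the gene. In *Nfkb2* the first capital run holds 2 overlapping matches, and the gene's other windows, not shown, also held matches. A match describes the letters and is not a measured site, and a window without a match does not show that the gene lacks a site.
Nfkb2 (chr19:46304587-46304736, + strand): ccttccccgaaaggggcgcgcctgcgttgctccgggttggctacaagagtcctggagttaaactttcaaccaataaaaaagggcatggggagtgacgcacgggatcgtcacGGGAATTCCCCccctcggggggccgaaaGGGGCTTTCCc
Nfkbia (chr12:55492648-55492797, - strand): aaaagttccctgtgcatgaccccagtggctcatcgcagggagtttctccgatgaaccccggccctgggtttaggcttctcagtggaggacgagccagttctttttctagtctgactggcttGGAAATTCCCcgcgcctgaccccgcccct
Tnfaip3 (chr10:19015411-19015560, - strand): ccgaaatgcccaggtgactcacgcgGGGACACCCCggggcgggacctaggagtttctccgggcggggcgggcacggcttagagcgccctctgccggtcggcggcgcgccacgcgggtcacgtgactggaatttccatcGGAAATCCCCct

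Of the 10 members, 5 were lower in the libraries labelled KO at an adjusted p under 0.05: *Nfkb2*, *Rela*, *Tnfaip3*, *Birc2* and *Icam1*. None was higher, with edgeR's quasi-likelihood test, with DESeq2, or at an unadjusted p under 0.05, since all 10 fold changes were below 0. Among all genes tested 11.6% were called lower and 11.5% higher. The median log2 fold change of the members was -0.69, against -0.002 over all genes. By the criteria that the study used (a log2 fold change beyond 1, adjusted p below 0.05, and 1 group whose mean FPKM exceeds 1), 3 members were lower, *Tnfaip3*, *Birc2* and *Icam1*, where 1.49% of all genes were. Without KO1, 3 members were lower, against 7.52% of all genes, and 1 met the study's criteria, against 1.36%. Without KO2 the counts were the same, against 7.28% and 1.36% of all genes.

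These totals leaned on LOXP2, the library in which all 10 members had their highest value. Without it, 4 members were lower (*Nfkb2*, *Tnfaip3*, *Birc2* and *Icam1*), 0 were higher with edgeR's quasi-likelihood test, 1 would be higher at an unadjusted p under 0.05 (*Nfkbiz*), and 0 met the study's criteria, against 1.33% of all genes. In that fit 8.92% of all 14483 genes tested were lower and 8.62% higher. The median of the members moved to -0.20, with 7 of 10 below 0, and that of all genes was -0.004. Levels below are in CPM, the deposited counts scaled to the library's TMM-adjusted total.

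**Figure D1:**
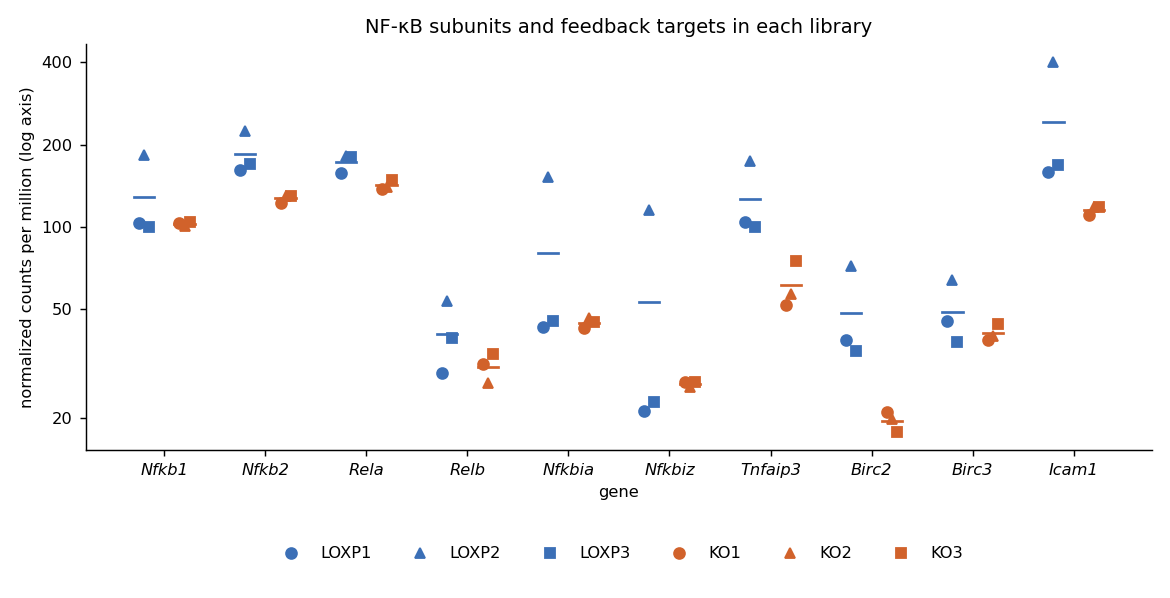
CPM (log axis) of each of the 10 genes in LOXP1 to LOXP3 (blue) and KO1 to KO3 (orange), with 1 point per library and a bar at the group mean. LOXP2 (blue triangles) is the highest point of every gene, and the KO points of *Nfkb2*, *Rela*, *Tnfaip3*, *Birc2* and *Icam1* all lie below the LOXP points.

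Of the subunits, *Nfkb2* (ENSMUSG00000025225, chromosome 19, 46292759 to 46300824), the p100 precursor of the non-canonical arm, was the only subunit called both with and without LOXP2. Gene positions are those of the deposited table, on GRCm39 by the submitters' processing notes. Its levels were 161.8, 224.8 and 170.7 CPM in LOXP1, LOXP2 and LOXP3 and 122.8, 130.3 and 130.1 CPM in KO1, KO2 and KO3. The KO libraries sat close together and below each LOXP library, so the order did not need LOXP2. The mean went from 185.8 ± 34.1 to 127.7 ± 4.27 CPM (SD, n = 3), and the log2 fold change was -0.54 (SE 0.116, 95% interval -0.80 to -0.28, edgeR quasi-likelihood adjusted p = 0.0120). Without LOXP2 it was -0.38 (SE 0.0663, -0.53 to -0.23, adjusted p = 0.00719), and the 14 alternatives gave adjusted p between 4.4e-05 and 0.0477. A long noncoding gene, *4833438C02Rik*, overlaps *Nfkb2* over 1317 bases with 157 counts in all, against 14945 for *Nfkb2*, and the strand setting of the counting is not given in the sources used here.

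*Rela* (ENSMUSG00000024927, chromosome 19, 5687511 to 5698158), the transactivating subunit of the canonical dimer, was the member least raised in LOXP2. It had 157.7, 181.3 and 180.1 CPM in LOXP1 to LOXP3 and 137.5, 139.9 and 148.5 CPM in KO1 to KO3. LOXP1 and KO3 were the nearest libraries of the groups, and they did not overlap. The log2 fold change was -0.29 (SE 0.0704, 95% interval -0.45 to -0.12, adjusted p = 0.0213), the smallest of the 5 called. Its size held without LOXP2 (-0.25, SE 0.0778), but the adjusted p of edgeR's quasi-likelihood test was 0.0614 there, 0.0707 without LOXP3, 0.0782 without KO1 and 0.0815 without KO2, the highest of its alternatives, the lowest being 0.00662.

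*Nfkb1* (ENSMUSG00000028163, chromosome 3, 135290416 to 135397308), the p105 precursor of p50, had 103.1, 183.4 and 99.68 CPM in LOXP1 to LOXP3. KO1 to KO3 had 103.8, 100.7 and 104.2 CPM. LOXP2 stood apart and the other 5 libraries agreed to within a few CPM. The log2 fold change was -0.32 with all libraries (SE 0.209, edgeR quasi-likelihood adjusted p = 0.314) and 0.02 without LOXP2 (SE 0.0675, 95% interval -0.13 to 0.18, adjusted p = 0.855).

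*Relb* (ENSMUSG00000002983, chromosome 7, 19340142 to 19363363), the partner of p52, was the least abundant in counts of the subunits. It had 29.22, 53.71 and 39.31 CPM in LOXP1 to LOXP3 and 31.61, 26.87 and 34.23 CPM in KO1 to KO3. LOXP1 lay among the KO libraries, and LOXP3 above them. The log2 fold change was -0.40 (SE 0.199, 95% interval -0.85 to 0.06, edgeR quasi-likelihood adjusted p = 0.190), -0.15 without LOXP2 (SE 0.149, adjusted p = 0.546), and -0.59 without LOXP1 (adjusted p = 0.0361), the only 1 of 14 alternatives that called it.

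Set per gene length, the subunit pool was mostly *Rela* and *Nfkb2*. The FPKM of *Rela*, *Relb*, *Nfkb1*, *Nfkb2* and *Rel* (the c-Rel subunit, outside the set) summed to 66.3, 87.6 and 72.9 in LOXP1 to LOXP3 and to 57.9, 58.0 and 62.4 in KO1 to KO3, lower in each KO library. *Nfkb2* made up 36.2% to 38.8% of that sum in LOXP and 33.2% to 35.0% in KO, ranges that did not overlap. *Rela* made up 35.7% in LOXP2 and 42.1% to 43.4% in the other 5 libraries. *Rel* had 9.53, 10.2 and 9.74 CPM in LOXP and 9.37, 11.1 and 10.7 in KO, and LOXP2 was within the range of the rest, unlike in the members. Its log2 fold change was 0.08 (SE 0.115, edgeR quasi-likelihood adjusted p = 0.648).

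Of the IκB family, *Nfkbia* (ENSMUSG00000021025, chromosome 12, 55536195 to 55539432) had 43.23, 152.7 and 45.50 CPM in LOXP1 to LOXP3. KO1 to KO3 had 42.90, 46.35 and 44.84 CPM. LOXP2 was 3.44 times the mean of the other LOXP libraries, and these lay inside the KO range. The log2 fold change was -0.85 with a wide 95% interval (-1.84 to 0.15, SE 0.436, edgeR quasi-likelihood adjusted p = 0.203). Without LOXP2 it was 0.01 (SE 0.0796, -0.17 to 0.20, adjusted p = 0.938).

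*Nfkbiz* (ENSMUSG00000035356, chromosome 16, 55631738 to 55659262) had 21.20, 115.1 and 22.98 CPM in LOXP1 to LOXP3 and 27.15, 26.01 and 27.23 CPM in KO1 to KO3. LOXP2 was 5.21 times the other LOXP libraries, the highest ratio of the set, and LOXP1 and LOXP3 were below every KO library. The log2 fold change was -0.98 (SE 0.581, 95% interval -2.31 to 0.35, adjusted p = 0.267) and turned to 0.28 without LOXP2 (SE 0.0945, 0.06 to 0.50, unadjusted p = 0.0180, edgeR quasi-likelihood adjusted p = 0.0785). It was the only member whose KO libraries lay above both remaining LOXP libraries.

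**Figure D2:**
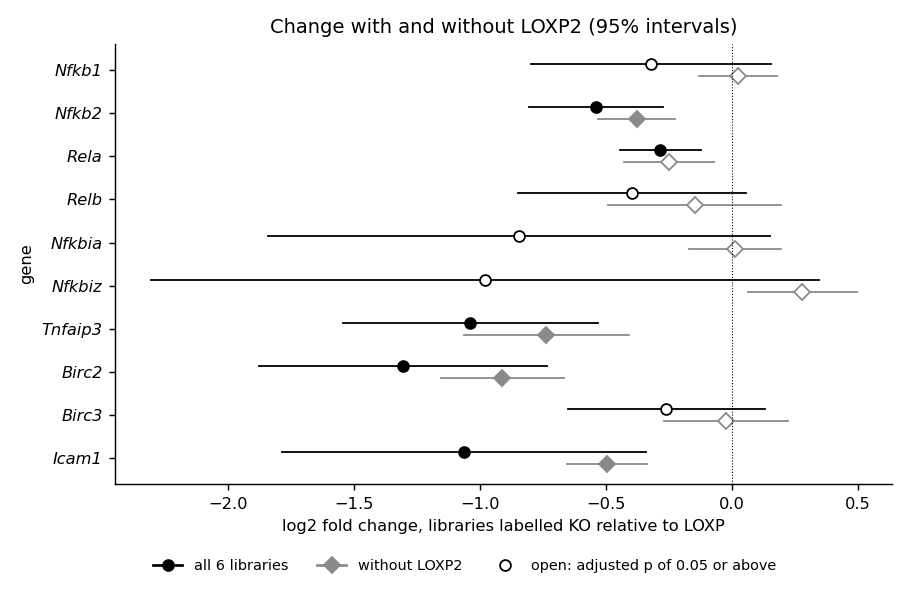
Log2 fold change of each gene in the libraries labelled KO relative to LOXP, with 95% intervals, for all 6 libraries (black circles) and without LOXP2 (grey diamonds), where filled symbols have an adjusted p under 0.05. *Nfkb2*, *Tnfaip3*, *Birc2* and *Icam1* are filled in both fits, and *Nfkb1*, *Nfkbia* and *Nfkbiz* cross 0 once LOXP2 is left out.

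Of the feedback regulators, *Birc2* (ENSMUSG00000057367, chromosome 9, 7818228 to 7837065), which encodes cIAP1, had the largest log2 fold change of the members. Its levels were 38.68, 71.89 and 35.16 CPM in LOXP1 to LOXP3 and 21.10, 19.91 and 17.84 CPM in KO1 to KO3. Every KO library was far below the lowest LOXP library, and LOXP2 was 1.95 times the mean of the other LOXP libraries. The mean went from 48.58 ± 20.3 to 19.62 ± 1.65 CPM (SD, n = 3), and the log2 fold change was -1.31 (SE 0.251, 95% interval -1.88 to -0.73, edgeR quasi-likelihood adjusted p = 0.00759). Without LOXP2 the LOXP mean was 36.92 CPM and the log2 fold change -0.91 (SE 0.106, -1.16 to -0.67, adjusted p = 0.00126). It was called under all 14 alternatives, with an adjusted p from 1.0e-05 to 0.0337.

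*Birc3* (ENSMUSG00000032000, chromosome 9, 7848700 to 7873187), which encodes the paralogue cIAP2 and lies 11634 bases from *Birc2*, had 45.44, 64.13 and 37.86 CPM in LOXP1 to LOXP3 and 38.69, 39.88 and 44.32 CPM in KO1 to KO3. Apart from LOXP2 the groups were interleaved. The log2 fold change was -0.26 (SE 0.171, 95% interval -0.65 to 0.13, edgeR quasi-likelihood adjusted p = 0.319) and -0.02 without LOXP2 (SE 0.106, -0.27 to 0.22, adjusted p = 0.910). The longest stretch that any *Birc2* and *Birc3* transcripts share in the GENCODE annotation is 114 bases, shorter than the 150-base reads.

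Taken as a ratio within each library, which needs no scaling between libraries, *Birc2* counts were 0.851, 1.12 and 0.929 of *Birc3* counts in LOXP1 to LOXP3 and 0.545, 0.499 and 0.403 in KO1 to KO3. The groups did not overlap, with or without LOXP2. The mean log2 ratio in KO minus that in LOXP was -1.005 (p = 0.1 in the exact two-sided permutation test, the smallest that 3 libraries against 3 can give, and 0.5 adjusted over 5 ratios), and -0.89 without LOXP2.

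*Tnfaip3* (ENSMUSG00000019850, chromosome 10, 18876658 to 18891405) had 104.4, 173.9 and 100.5 CPM in LOXP1 to LOXP3 and 52.01, 56.98 and 75.23 CPM in KO1 to KO3. KO3 was the highest of its group and still below LOXP1 and LOXP3, which were nearly equal. The mean went from 126.3 ± 41.3 to 61.41 ± 12.2 CPM (SD, n = 3), and the log2 fold change was -1.04 (SE 0.221, 95% interval -1.54 to -0.53, edgeR quasi-likelihood adjusted p = 0.0117). It was -0.74 without LOXP2 (SE 0.143, -1.07 to -0.41, adjusted p = 0.0109), -0.93 without KO1 and -0.99 without KO2, each short of the study's fold change criterion, and the adjusted p ran up to 0.0476 over its alternatives.

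*Tnfaip3* was called and *Nfkbia*, also an induced regulator with a κB match in its promoter window, was not. Their ratio within a library tested that difference. *Tnfaip3* counts were 2.42, 1.14 and 2.21 times those of *Nfkbia* in LOXP1 to LOXP3 and 1.21, 1.23 and 1.68 times in KO1 to KO3. LOXP2 was the lowest of all 6, below the KO libraries, and the other LOXP libraries were above them. The mean log2 ratio in KO minus that in LOXP was -0.43 (exact two-sided permutation test, p = 0.4, adjusted 0.667), and -0.77 without LOXP2.

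The other 3 ratios overlapped between groups. *Nfkb2* counts were 1.57, 1.23 and 1.71 times those of *Nfkb1* in LOXP1 to LOXP3 and 1.18, 1.29 and 1.25 times in KO1 to KO3 (exact permutation p = 0.3, adjusted 0.667). *Nfkbia* counts were 0.274, 0.842 and 0.253 of those of *Rela* in LOXP and 0.312, 0.331 and 0.302 in KO, with LOXP2 alone above KO (exact permutation p = 1). *Relb* counts were 0.185 to 0.296 of those of *Rela* in LOXP and 0.192 to 0.231 in KO (exact permutation p = 0.9, adjusted 1).

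**Figure D3:**
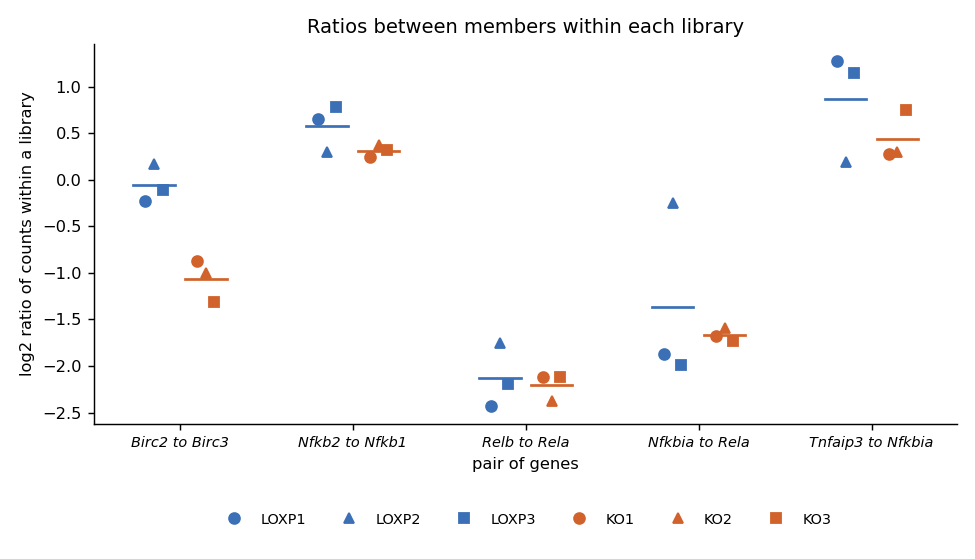
Log2 ratio of counts between pairs of the genes within each library, LOXP1 to LOXP3 in blue and KO1 to KO3 in orange, with a bar at the group mean. Only the ratio of *Birc2* to *Birc3* has every KO library below every LOXP library, and LOXP2 lies opposite to the other LOXP libraries for *Nfkbia* to *Rela* and for *Tnfaip3* to *Nfkbia*.

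*Icam1* (ENSMUSG00000037405, chromosome 9, 20927281 to 20940113) had 158.5, 399.9 and 168.4 CPM in LOXP1 to LOXP3 and 110.3, 118.1 and 118.8 CPM in KO1 to KO3. LOXP2 was 2.45 times the other LOXP libraries, and these were in turn above every KO library. The mean went from 242.3 ± 137 to 115.8 ± 4.72 CPM (SD, n = 3), and the log2 fold change was -1.06 (SE 0.316, 95% interval -1.79 to -0.34, edgeR quasi-likelihood adjusted p = 0.0426). Without LOXP2 the LOXP mean was 163.4 CPM, and the log2 fold change was nearer to 0, -0.50, with a smaller error (SE 0.0693, -0.66 to -0.34, adjusted p = 0.00287). With all libraries but KO1, KO2 or KO3 the call was lost, at adjusted p of 0.116, 0.1085 and 0.104, and it was lost under 7 of 14 alternatives.

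For single genes the exact two-sided permutation test gave p = 0.1, its smallest value, for *Nfkb2*, *Rela*, *Tnfaip3*, *Birc2* and *Icam1*, in which every KO library was below every LOXP library. Of all genes tested, 20.3% had that order. The exact permutation p was 0.3 for *Relb*, 0.5 for *Birc3*, 0.6 for *Nfkbia*, 0.9 for *Nfkb1* and 1 for *Nfkbiz*. Without LOXP2 the same 5 members had every KO library below both LOXP libraries, an order that 24.7% of all genes had.

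Compared per gene length, the members formed an abundant and a scarce class. In LOXP the mean level was 51.4 ± 28.2 FPKM for *Icam1*, 39.8 ± 30.4 for *Nfkbia*, 30.3 ± 2.05 for *Rela* and 28.5 ± 4.81 for *Nfkb2* (SD, n = 3), neighbours whose ranges overlapped. A gap followed, and the other 6 had mean levels from 5.83 FPKM (*Birc2*) to 8.90 FPKM (*Tnfaip3*), again with overlapping ranges between neighbours. In KO the order was *Rela* (25.5 ± 1.27), *Icam1* (25.3 ± 1.09), *Nfkbia* (22.8 ± 0.801) and *Nfkb2* (20.1 ± 0.699), of which only *Rela* and *Icam1* overlapped. *Nfkb1* (6.41), *Relb* (6.01) and *Birc3* (6.01) came next and each overlapped its neighbour, then *Tnfaip3* (4.45) and *Nfkbiz* (3.68), which overlapped, and *Birc2* (2.42) was last, below the rest. With LOXP2 left out, *Birc2* had a mean of 4.48 FPKM in LOXP and was above *Nfkbiz* (2.99), the reverse of the order in KO.

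The fit without LOXP2 was planned before this comparison, and the members were picked with earlier results of these data known. The shares given here therefore describe the library and are not a test of it. LOXP2 was the highest of the 6 libraries for 10 of 10 members, against 17.0% of all genes tested. Its level over the mean of LOXP1 and LOXP3 was 1.07 for *Rela*, 1.35 for *Nfkb2*, 1.54 for *Birc3*, 1.57 for *Relb*, 1.70 for *Tnfaip3*, 1.81 for *Nfkb1*, 1.95 for *Birc2*, 2.45 for *Icam1*, 3.44 for *Nfkbia* and 5.21 for *Nfkbiz*. *Nfkbiz* and *Nfkbia* thus stood highest and *Rela* lowest. Among the 5792 genes with at least as many counts as the scarcest member, the median of this ratio was 1.01 and the middle 95% ran from 0.798 to 1.30, so 9 of 10 members lay beyond it and *Rela* within. A ratio above 2 was found in 20 of those genes (0.345%), of which 3 were members, and a ratio above 3 in 8 genes (0.138%), of which 2 were members.

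**Figure D4:**
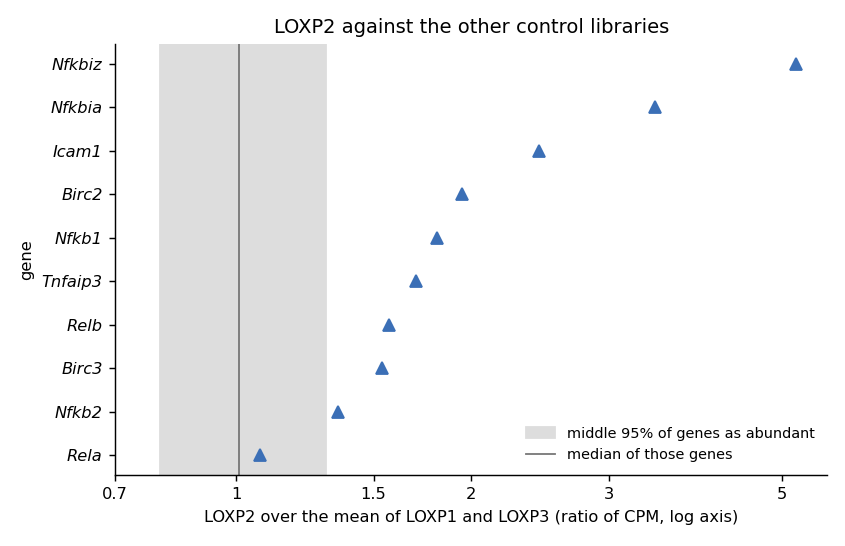
Level in LOXP2 over the mean of LOXP1 and LOXP3 (ratio of CPM, log axis) for each of the 10 genes, with the grey band covering the middle 95% of the 5792 genes of at least the same total count and the line at their median of 1.01. Only *Rela* (1.07) lies in the band, and *Nfkbiz* (5.21) lies farthest to the right.

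With LOXP2 all 10 members varied more in LOXP than in KO, with coefficients of variation of 7.68% to 101% and 1.83% to 19.9%, where 59.3% of all genes tested did. Between LOXP1 and LOXP3 alone the coefficients ran from 2.35% to 20.8%, and 7 of 10 members exceeded their value in KO, where 50.8% of all genes did. Counting error in the library with the fewest counts accounted for 2.15% to 5.72%. Mean centred log2 levels, averaged over the 10 members, were -0.06, 0.95 and -0.01 in LOXP1 to LOXP3 and -0.33, -0.32 and -0.23 in KO1 to KO3. Of 11092 other genes that exceeded 1 FPKM on average in either group, those nearest to this profile over the 6 libraries were *Gsap* (root mean square difference 0.0837 on the log2 scale), *Nuak2* (0.0863), *Miga2* (0.0891), *Lce1g* (0.0974) and *Adamts4* (0.0992). *Nuak2*, for example, had 16.4, 33.9 and 17.7 CPM in LOXP1 to LOXP3 and 12.3, 12.4 and 15.5 CPM in KO1 to KO3.

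Markers of other liver cells were read beside this, since hepatocyte preparations can carry them, and in bulk RNA fewer cells of a type and less RNA per cell cannot be told apart. Macrophage and Kupffer cell markers (14 of 15 tested, none at 0 throughout, led by *Cd68* and *Lyz2*) summed to 66.8 to 84.0 FPKM in LOXP and 53.2 to 63.1 FPKM in KO. Of them 2 were lower, *Cd68* and *Mpeg1*, where 11.6% of all genes were. *Cd68* was the largest part of the sum, with 34.9, 37.7 and 40.1 FPKM in LOXP and 20.8, 22.8 and 19.6 in KO. *Lyz2* and *Marco* were among those not lower. LOXP2 had the lowest sum of the LOXP libraries, 66.8 FPKM, but the markers of this list did not all move together in it. By CPM, *Clec4f*, *Vsig4*, *Cd5l*, *C1qa*, *C1qb*, *C1qc* and *Fcgr1* were lower in LOXP2 than in LOXP1 and LOXP3. *Lyz2*, *Adgre1*, *Csf1r*, *Timd4* and *Ptprc* were higher there, and *Cd68*, *Mpeg1* and *Marco* lay between. The Kupffer cell gene *Clec4f* had 88, 30 and 87 counts in LOXP1 to LOXP3 and 90, 90 and 69 in KO1 to KO3. *Vsig4* had 31, 5 and 25 counts in LOXP and 24, 33 and 22 in KO. *C1qa* had 118, 32 and 122 counts in LOXP and 76, 106 and 59 in KO. *Ptprc*, of the same list, went the other way in LOXP2, with 22, 40 and 19 counts in LOXP and 18, 12 and 22 in KO. The genes whose counts are given were chosen after their values were seen. Of 8 neutrophil markers none passed the filter, *Ly6g*, *Mpo* and *Retnlg* were at 0 in every library, and the list summed to 29 counts in LOXP2, 21 of them from *Csf3r*, against 1 to 7 in the other libraries. All 10 markers of T cells, B cells and NK cells were at 0 in every library.

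Cholangiocyte markers (4 of 6 tested, none at 0 throughout, led by *Cldn4* and *Sox9*) summed to 119 to 140 FPKM in LOXP and 61.8 to 72.7 FPKM in KO, with 3 lower and 1 higher. The higher marker was *Krt19* (log2 fold change 0.82 with all libraries, edgeR quasi-likelihood adjusted p = 0.0479). It was not called without LOXP2 (0.67, adjusted p = 0.119). *Krt7* had 0 to 5 counts per library and *Epcam* 2 to 12, too few to be tested. The sum, which was mostly *Cldn4*, moved with the members that were lower. Hepatocyte markers moved with them too, by the sums above, with 6 of 9 lower. Among all genes tested 11.6% were lower and 11.5% higher, the shares to set beside the counts of each list. Sinusoidal endothelial markers (10 of 11 tested, 1 lower, led by *Cdh5* and *Lyve1*) summed to 31.9 to 35.0 FPKM in LOXP and 29.7 to 33.0 in KO. Stellate cell and fibroblast markers (8 of 10 tested, led by *Ecm1* and *Dcn*) summed to 14.4 to 14.7 and 14.2 to 15.8 FPKM, with overlapping groups in both lists. Of the endothelial list, *Kdr* (267, 90 and 263 counts in LOXP1 to LOXP3) and *Gpr182* (89, 35 and 94) were low in LOXP2. By CPM, *Lyve1* and *Cdh5* of that list were higher in LOXP2 than in LOXP1 and LOXP3. *Kdr* and *Gpr182* were chosen after their values were seen. The part of the macrophage, endothelial, neutrophil, cholangiocyte and hepatocyte lists in the members' values was not tested.

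Around the members, 120 other genes of the NF-κB pathway were in the table, and 98 were tested. Of these, 21 were lower (21.4%, against 11.6% of all genes) and 3 higher (3.06%, against 11.5%), with 73 of 98 fold changes below 0 and a median log2 fold change of -0.20. LOXP2 was the highest library for 47 of 98 (48.0%). Without LOXP2, 19 of 100 were lower (against 8.92% of all genes) and 10 higher (against 8.62%), with a median of -0.14, and 17 of the 21 lower and all 3 higher genes were called in both fits. Without KO1, 10 of 101 were lower (9.90%), nearer to the 7.52% of all genes.

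Of the ligands that start the pathway, *Tnf*, *Il1a* and *Il1b* were scarce outside LOXP2, and 3 of 13 in the table passed the filter. *Tnf* had 0, 73 and 6 counts in LOXP1 to LOXP3 and 6, 9 and 10 in KO1 to KO3, and *Il1b* had 75 counts in LOXP2 and 0 in the other 5 libraries. *Il1a* had 0.694, 7.62 and 0.922 CPM in LOXP and 0.510, 0.378 and 0.408 CPM in KO, a log2 fold change of -2.80 (SE 0.957, edgeR quasi-likelihood adjusted p = 0.0685). LOXP2 alone held most reads of these 3 cytokines. It also stood apart for target genes chosen after their values were seen: *Sele* had 193 counts in LOXP2 and 2 to 9 elsewhere, *Csf3* 104 against 0 to 4, *Il6* 29 against 0 to 4, and *Cxcl2* 113 CPM against 5.23 to 7.01 CPM. A count of 0 allows up to 3 counts, for counting error only.

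Receptors and adaptors came next, with 5 of 24 tested lower and 1 higher, against 11.6% and 11.5% of all genes. Without LOXP2, 3 of 24 were lower and 1 higher, against 8.92% and 8.62% of all genes. *Irak2*, a kinase that relays IL-1 and Toll-like receptor signals, had 53.8, 70.6 and 61.7 CPM in LOXP and 24.7, 27.9 and 18.6 CPM in KO (log2 fold change -1.38, edgeR quasi-likelihood adjusted p = 6.1e-04). *Traf2*, the adaptor that recruits cIAP1 and cIAP2 to TNF receptors, fell by 0.65 on the log2 scale, and *Tlr2*, a receptor for bacterial lipoproteins, by 0.97, or by 0.54 without LOXP2. *Ticam1*, which encodes the adaptor TRIF, had 16.5, 20.1 and 16.1 CPM in LOXP and rose to 24.6, 27.3 and 26.5 CPM in KO (log2 fold change 0.58). All 4 were called with and without LOXP2.

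At the IKK step, 14 of 16 genes tested were not called, 1 was lower and 1 higher, against 11.6% and 11.5% of all genes. *Ikbke*, which encodes IKKε, had 160, 351 and 171 CPM in LOXP and 116, 112 and 124 CPM in KO (log2 fold change -0.95, edgeR quasi-likelihood adjusted p = 0.0340, and -0.50 without LOXP2, adjusted p = 0.00340). *Ikbkg*, which encodes NEMO, the regulatory subunit of the IKK complex, had 81.2, 78.4 and 75.9 CPM in LOXP and rose to 112.3, 108.5 and 108.0 CPM in KO (log2 fold change 0.48, adjusted p = 9.6e-04), and LOXP2 lay between the other LOXP libraries. *Nkrf*, a repressor of some NF-κB targets, rose by 0.61 on the log2 scale and was the only 1 of 5 other subunits or inhibitors called with all libraries. *Bcl3*, an IκB protein that works in the nucleus, joined it without LOXP2 (0.33, adjusted p = 0.0298), having 0.03 with all libraries.

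Of 18 other brakes on the pathway tested, 4 were lower, against 11.6% of all genes. Without LOXP2, 4 were lower and 1 higher, against 8.92% and 8.62% of all genes. *Usp18*, which removes ISG15 and is itself an interferon-stimulated gene, had 89.6, 73.9 and 73.6 CPM in LOXP and 30.7, 28.3 and 32.2 CPM in KO (log2 fold change -1.38, edgeR quasi-likelihood adjusted p = 7.8e-05), and LOXP1, not LOXP2, was its highest library. *Tnip1* and *Tax1bp1*, partners of A20, fell by 0.81 and 0.40 on the log2 scale, and both were called without LOXP2 too. *Zc3h12a*, which encodes the RNase regnase-1, had 9.53, 41.8 and 9.74 CPM in LOXP and 13.1, 12.4 and 13.0 CPM in KO. Its KO libraries lay between LOXP2 and the other LOXP libraries, as those of *Nfkbiz* did, with a log2 fold change of -0.66 (adjusted p = 0.413) with all libraries and 0.42 without LOXP2 (adjusted p = 0.0451).

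Of 32 other targets tested, 11 were lower with all libraries, against 11.6% of all genes, and 11 without LOXP2, against 8.92%. LOXP2 was the highest library for 26 of the 32, where it was for 17.0% of all genes. With all libraries the 3 with the smallest adjusted p were acute phase genes of the liver. Without LOXP2 the chemokine gene *Ccl2* took the place of *Orm1* among the 3. *C3*, the central complement component, had 4745, 5628 and 5157 CPM in LOXP and 2471, 2642 and 2582 CPM in KO (log2 fold change -1.01, SE 0.0656, edgeR quasi-likelihood adjusted p = 5.0e-05). *Orm1*, an acute phase glycoprotein, fell by 0.64 on the log2 scale. *Saa3*, a serum amyloid A protein, had 50.6, 104.6 and 60.5 CPM in LOXP and 16.5, 17.1 and 18.7 CPM in KO (log2 fold change -2.04, and -1.67 without LOXP2).

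A further 5 targets were higher in KO once LOXP2 was left out, where 8.62% of all genes were. The 3 with the smallest adjusted p are given. *Cxcl1*, a neutrophil-attracting chemokine, had 78.3, 374.2 and 71.7 CPM in LOXP and 100.7, 104.6 and 106.5 CPM in KO (log2 fold change -0.75 with all libraries, edgeR quasi-likelihood adjusted p = 0.386, and 0.47 without LOXP2, adjusted p = 0.00514). *Cxcl5*, of the same family, had 1.96, 9.37 and 1.71 CPM in LOXP and 5.29, 4.43 and 5.19 CPM in KO (0.21, adjusted p = 0.834, and 1.43 without LOXP2, adjusted p = 0.00364). *Ier3*, an immediate early gene, had 0.26 without LOXP2 (adjusted p = 0.0331) and -0.29 with all libraries (adjusted p = 0.547). In each of these 3 the KO libraries lay above LOXP1 and LOXP3 and below LOXP2, as they did for *Nfkbiz*.

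**Figure D5:**
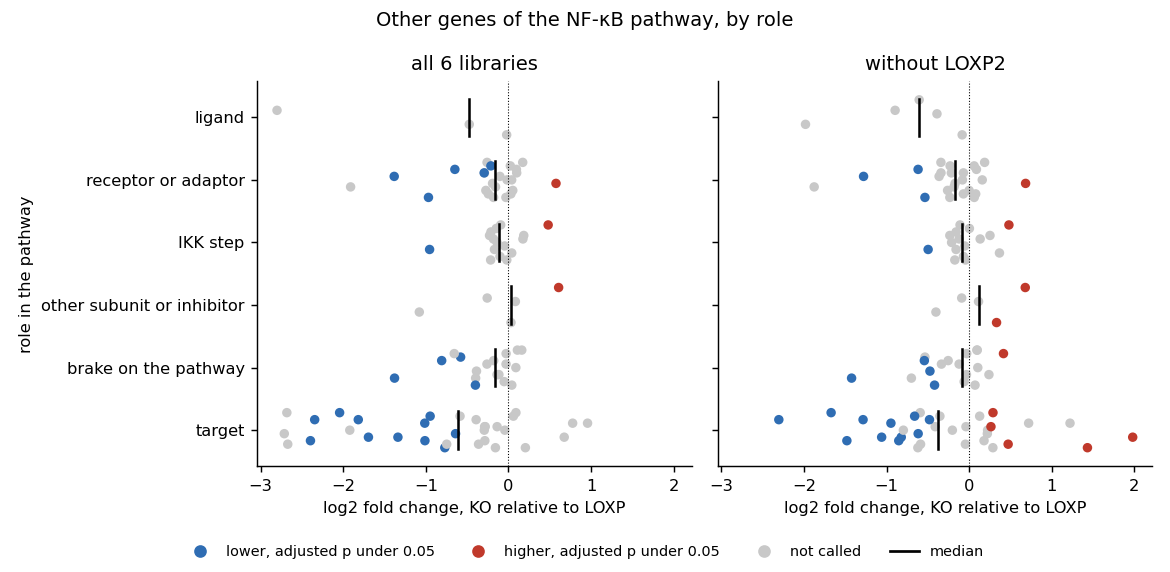
Log2 fold change, KO relative to LOXP, of the other NF-κB pathway genes tested, by role, with all 6 libraries (left, 98 genes) and without LOXP2 (right, 100 genes), where blue is lower and red is higher at an adjusted p under 0.05, grey is not called, and the bar is the median of the role. Targets have the lowest median with all libraries (-0.61), and red target points appear on the right and not on the left.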

How the data were processed

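RNA of primary hepatocytes was sequenced in 6 libraries, 3 per group, assigned by the sample labels. Paired-end reads were aligned by the authors with HISAT2, and the submitters' processing notes also name fastp, StringTie and edgeR, with no versions, and the build GRCm39. The authors deposited 1 table with raw read counts and FPKM values per gene. Their normalization inside edgeR, their annotation and their strand setting are not given in the sources used here. The depth, 14726983 to 18536985 counted reads, limits genes of few counts, and intervals of counts cover counting error only. Replicates differed by more than counting noise (chi-square per degree of freedom 7.58 to 16.0), so none was merged.

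The counts went through edgeR 4.0.16 in R 4.3.3: filterByExpr (minimum count 10), TMM factors (0.973 to 1.02), glmQLFit and glmQLFTest, two-sided, with p-values adjusted by Benjamini-Hochberg across the genes tested (biological coefficient of variation 0.118). The main fit and the fit without LOXP2 were checked on simulated data with known changed genes. So were upper-quartile factors, the replicate block, DESeq2, the exact test and limma-trend, the last on CPM in place of FPKM. The other filters and the other libraries left out were not checked so. The simulated data had a single dispersion for all genes and no outlying library. FPKM was used to compare levels between genes. Ratios and single genes were compared with exact permutation tests. Alternatives were DESeq2 1.42.0, upper-quartile factors, edgeR's exact test, other filters on low counts, a replicate block, limma-trend (limma 3.58.1) on log2(FPKM + 1) and log2(FPKM + 0.1), and each library left out in turn. DESeq2 gave no adjusted p for 8 genes. Promoter sequences are from RefSeq, transcripts from GENCODE. Python 3.11.15, scipy 1.17.1 and matplotlib 3.10.9 were used for the rest.

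The members, the pathway list and the marker lists were chosen by hand with earlier results of these data known. The genes named are all members, *Sting1*, up to 3 lower and 3 higher genes of each pathway role with the smallest adjusted p in either fit, *Tnf*, *Il1a* and *Il1b*, for each cell type the 2 markers of highest mean FPKM, and the 5 genes most like the members. Any other gene, such as *Rel*, markers at 0 and genes overlapping a member, was added once its values were known.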

Additional observations from a re-analysis of the deposited data

How the results depend on the processing

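Of 14 alternatives, none turned the direction of the 5 members called with all libraries, and *Nfkb2*, *Tnfaip3* and *Birc2* were called under each. Leaving out LOXP2 turned the log2 fold changes of *Nfkb1*, *Nfkbia* and *Nfkbiz*, which over the libraries left out ran from -0.48 to 0.0225, from -1.15 to 0.0123 and from -1.37 to 0.28. The number of members lower was 5, and 4 with DESeq2, with limma-trend and when all genes with 1 count or more were tested. With single libraries left out it was 3 to 6, where 6 adds *Relb* without LOXP1. Among all genes, 1641 of 14151 were lower in the main fit, 1538 with DESeq2, and 1349 and 1344 with the 2 limma-trend fits. When all genes with 1 count or more were tested, 1271 of 25004 were lower. Single libraries left out gave 1052 of 14450 (without KO2) to 1515 of 14421 (without LOXP1). The number that met the study's criteria was 3, and 2 with DESeq2 and when all genes with 1 count or more were tested. It was 0 with limma-trend on log2(FPKM + 1), 1 on log2(FPKM + 0.1), and 0 to 3 with libraries left out, lowest without LOXP2. Of all genes, 211 were lower by these criteria in the main fit, 205 with DESeq2, and 93 and 169 with limma-trend. The filter of 1 count gave 194, and libraries left out gave 193 (without LOXP2) to 223 (without LOXP1). Pathway genes lower numbered 21, 25 with DESeq2 and 27 with edgeR's exact test. They numbered 15 with limma-trend on either scale and when all genes with 1 count or more were tested. With libraries left out they ran from 10, without KO1, to 24. Those higher ran from 3 to 10, highest without LOXP2. The cause of these changes was not tested. The numbers in the labels are not stated to pair the libraries, and same-numbered libraries deviated together with correlations of 0.120, 0.0834 and 0.0134, LOXP3 correlating best with KO2. With the replicate block 5 members were lower and 2 met the study's criteria, 22 pathway genes were lower and 3 higher. Of all 14151 genes in that fit, 1605 were lower, 1630 were higher, and 201 were lower by the study's criteria. With all libraries the intervals of *Nfkbia* and *Nfkbiz* are the widest of the members, and without LOXP2 they narrow to -0.17 to 0.20 and 0.06 to 0.50.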
